A study of Mus musculus with 60 samples.

Results

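Extraembryonic tissue (ExE) of cultured mouse embryos that received the EZH2 inhibitor EPZ005687 was compared with ExE that received its solvent DMSO. The comparison rests on 2 of the 60 samples of the series, the deposited count columns of the ExE libraries with the inhibitor and with DMSO. Genes with 100 or more counts over those columns were described, which were 7340 of the 23127 genes of the table (31.7%), and they held 97.7% of the DMSO counts and 91.9% of the EPZ005687 counts. The series profiled H3K27me3, DNA methylation and RNA in gastrulating embryos of the outbred ICR strain, without a stated genetic change. Its 6 RNA libraries, labelled as polyA RNA, represent ExE and the anterior (A) and posterior (P) regions of the embryo proper, 1 library for each tissue and treatment. All of these embryos were kept as explants in N2B27 medium for 48 hours, and the DMSO group received the inhibitor's volume of solvent. The dose, the age and sex of the RNA embryos and the number pooled in a library are not stated. The 3 columns of an arm carry one code and those of the other arm another, so what goes with that code cannot be told apart from the treatment. With 1 library a side no p-value can be had. A gene was called when its level differed at least 4-fold, a level being CPM (counts per 1e+06 of the library) after TMM scaling, and 95% intervals cover counting error alone, not the spread between embryos.

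EZH2 is the enzyme of PRC2, a Polycomb complex that methylates lysine 27 of histone H3. This mark, H3K27me3, lies over silent developmental genes, many with promoters rich in CG dinucleotides, and in the placental lineages of the mouse it also keeps the paternal X and some imprinted genes silent. Extraembryonic tissue of the gastrula holds trophoblast, endoderm that secretes serum proteins and basement membrane, and the mesoderm in whose blood islands the first red cells arise.

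The label was checked against marker lists before the treatment was read. Of 18 trophoblast progenitor markers in the table only Furin and Ets2 had 100 or more counts. Cdx2, the homeobox factor that specifies trophoblast, had 0 counts with DMSO and 0 with EPZ005687. Elf5 had 1 and 6 counts, Eomes 10 and 14, Tfap2c 3 and 9, and Ascl2, a factor of the ectoplacental cone, 0 and 2. Hand1, needed for giant cells, had 0 and 8 counts, and Tpbpa, the spongiotrophoblast marker, 1 and 9. Thus these defining factors of trophoblast were at or near 0. Other placental genes had more counts, and 4 of 16 genes of the ectoplacental cone list reached 100. Phlda2, an imprinted gene that limits placental growth, had 2171 counts with DMSO and 512 with EPZ005687, against 28 in A with DMSO. In P with DMSO it had 1383 counts, a level of 481 beside 514 in ExE with DMSO. The X-linked homeobox gene Rhox6 had 309 and 61, and Plac1, a placental membrane protein, 174 and 65. These 2 genes had 0 and 2 counts in A with DMSO, and 19 and 48 in P with DMSO. The leukaemia inhibitory factor receptor Lifr had 745 and 70 counts, against 358 in P with DMSO, and was the one counted member of the giant cell list. The syncytiotrophoblast list held 0.136% of the DMSO counts and 0.0220% of the EPZ005687 counts, mostly from the carrier Slc16a1. It held 0.00612% in A and 0.0670% in P with DMSO. Visceral endoderm markers were abundant, since 19 of 24 secreted-protein genes had 100 or more counts and the list held 3.60% of the DMSO counts and 3.11% of the EPZ005687 counts. Of 15 parietal endoderm genes 13 had 100 or more counts. Defining factors of epiblast and streak were near 0, with 0 and 3 counts of Pou5f1, 1 and 0 of T and 0 and 0 of Sox2. The epiblast list as a whole nevertheless held 0.339% of the DMSO counts, beside 0.344% in A with DMSO, through Sall4 (17545 counts), Lin28a (1872) and Dnmt3b (216). The libraries labelled ExE thus held abundant endoderm transcripts and mixed signs of trophoblast, some of which P with DMSO shared. They are called extraembryonic as labelled.

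The ExE library with DMSO had 5812535 counts and the one with EPZ005687 had 1995240, the 6 RNA libraries running from 1000342 to 5812535. A count of 0 allows up to 3 counts, a level of 0.710 with DMSO and 1.21 with EPZ005687. The ribosomal RNA precursor Rn45s took 0.0853% of the counts with DMSO and 0.521% with EPZ005687, while it reached 6.54% in P with EPZ005687.

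With EPZ005687, 170 of the 7340 genes (2.32%) were at least 4-fold higher and 860 (11.7%) at least 4-fold lower. At 16-fold the counts were 52 higher and 132 lower. The 860 lower genes had held 34.8% of all DMSO counts and held 5.29% with EPZ005687, whereas the 170 higher genes went from 0.248% to 7.74%. The median log2 ratio of all 7340 genes was -0.51, with quartiles at -1.25 and 0.17. That centre depends on the scaling. Scaling to library totals moved it by 0.77, to 0.27, and gave 408 higher and 426 lower genes, so that 48.9% of the called genes were higher in place of 16.5%. Gene groups are therefore read against the median of all genes, and a negative log2 ratio smaller in size than about 0.77 turned positive with library totals. Counting intervals lay wholly above 0 for 1488 genes and wholly below it for 4215. At the edge of the count minimum, 36 genes with exactly 100 counts had a median log2 ratio of 0.26 and 32 genes with 99 counts, just outside, had -0.01. Since a gene that reached the minimum through 1 library alone had to differ, list counts below describe the members that reached it.

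**Figure D1:**
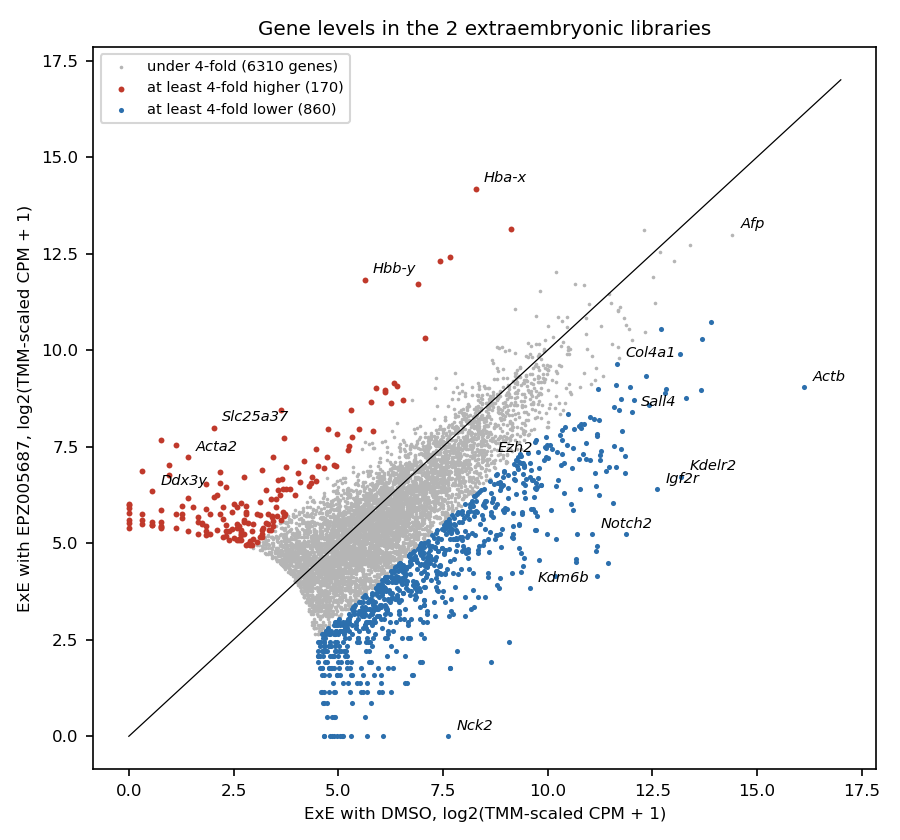
Level of each of the 7340 genes in extraembryonic tissue with DMSO (horizontal) and with EPZ005687 (vertical), both as log2(TMM-scaled CPM + 1), with 1 library an axis and 1 gene a point. Red points are the 170 genes at least 4-fold higher, blue points the 860 at least 4-fold lower and grey points the others, and the line marks equal levels; Hba-x and Hbb-y lie far above it and Actb, Igf2r and Kdelr2 far below.

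Among the 39 lists with 3 or more counted genes, the red cell lists had the highest medians. Of 20 primitive blood genes, 12 had 100 or more counts, and 11 of these were at least 4-fold higher with none lower, against 2.32% of all genes. Their median log2 ratio was 4.48, against -0.51 over all genes, and the list's share of the counts went from 0.0522% to 3.61%. Some of the 12, such as Klf1, reached the minimum through the EPZ005687 library alone and so had to differ. In a bulk library, fewer or more cells of a type cannot be told apart from less or more RNA per cell.

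The embryonic globin chains carried most of these counts. Hba-x, the embryonic alpha-like (zeta) globin, had 1310 counts with DMSO and 46339 with EPZ005687 in ExE, levels of 310 and 18624, a log2 ratio of 5.91 (interval 5.83 to 5.99). With EPZ005687 it held 2.32% of all counts, the largest share of any gene in that library. In P the same gene had 19879 counts with DMSO and 698 with EPZ005687, a log2 ratio of -4.44, and in A it had 7 and 9 counts. The high libraries for Hba-x were thus ExE with the inhibitor and P without it. Whether ExE and P were dissected alike in both arms is not given, and with 1 library each it cannot be told apart from the treatment, here and for the blood genes that follow. Hbb-y, the embryonic beta-like globin, showed the same order, with 205 and 9013 counts in ExE (6.21, interval 6.02 to 6.43), 2425 and 119 in P (-3.94), and 10 and 3 in A. Hbb-bh1, another embryonic beta-like globin, had a log2 ratio of 4.75 in ExE and -1.14 in P. The adult alpha genes Hba-a1 and Hba-a2 had 0 counts in both ExE libraries. Globin paralogs share sequence, so the split of reads between them is uncertain.

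Enzymes of heme synthesis and iron supply were higher as well. Of 16 such genes in a list drawn up after these values were seen, 15 had 100 or more counts. Of these 8 were at least 4-fold higher and none lower, against 2.32% of all genes higher, with a median of 2.16. Some, such as Ppox, reached the minimum through the EPZ005687 library alone. Slc25a37 (mitoferrin), which imports iron into mitochondria of red cell precursors, had 13 and 630 counts in ExE, 500 and 23 in P, and 47 and 27 in A. Its log2 ratio was 6.11 (5.58 to 7.28) in ExE and -3.95 in P. Alas2, the red cell enzyme that starts heme synthesis, had 42 and 370 counts in ExE (3.83, interval 3.44 to 4.40), 132 and 8 in P (-3.40), and 11 and 4 in A. Ppox, which oxidizes protoporphyrinogen, had 6 and 123 counts in ExE (4.63), 37 and 5 in P, and 0 and 6 in A. Fech, which inserts the iron, and Alad and Urod of the middle steps had log2 ratios of 2.80, 2.66 and 2.28 in ExE, against -3.02, -2.89 and -1.48 in P. The steps that differed less in ExE were Cpox (0.76) and Uros (0.39), both under 4-fold. Blvrb, the biliverdin reductase of red cells, stood at 4.07.

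Of 15 red cell surface and skeleton genes, listed after the values were seen, 8 had 100 or more counts. Of these 7 were at least 4-fold higher, against 2.32% of all genes, with a median of 5.40. Some of the 8 reached the minimum through the EPZ005687 library alone and so had to differ. Kel, the Kell blood group glycoprotein, had 0 counts with DMSO and 158 with EPZ005687 in ExE, so it was at least 89.5-fold higher against a floor of 3 counts in the DMSO library. In P Kel had 12 and 27 counts and in A 21 and 6, so no library but ExE with EPZ005687 was high. Sptb, the beta spectrin under the red cell membrane, had 2 and 108 counts in ExE (5.36, interval 4.63 to 9.58). Epb4.2, which ties band 3 to that skeleton, had 2 and 113 counts in ExE (5.43, interval 4.70 to 9.65), 95 and 17 in P (-1.99), and 16 and 4 in A. Below the minimum lay, among others, Slc4a1, the band 3 anion exchanger, with 2 and 72 counts, and Rhag with 3 and 69. Genes below the minimum leaned higher over the whole table, since with no minimum 4344 genes were at least 4-fold higher and 1423 lower. Such counts are therefore not particular to red cell genes.

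Of 14 regulators of the red cell and megakaryocyte lineages, also listed after the values were seen, 8 had 100 or more counts. Of these 6 were at least 4-fold higher, against 2.32% of all genes, with a median of 3.45. Some, such as Gfi1b, reached the minimum through the EPZ005687 library alone. Gata1, the zinc finger factor that red cell maturation requires, had 22 and 82 counts in ExE (2.53, interval 1.97 to 3.41), 90 and 19 in P (-1.76), and 1 and 3 in A. Klf1, which activates globin and other red cell genes, had 11 and 145 counts in ExE (22.4-fold higher), 116 and 0 in P, and 0 and 0 in A. Gfi1b, a repressor needed in the same lineages, had 0 and 155 counts in ExE, at least 87.8-fold higher against the floor, and 68 and 42 in P. Lmo2, the bridging protein of the GATA and TAL complexes, stood at 4.99 and Nfe2 at 2.69. Tal1 itself stayed below the minimum with 0 and 64 counts. Runx1, which is required for definitive blood, went the other way at -0.89 (175 and 55 counts), under 4-fold. Tspan32, a tetraspanin of blood cells, had 5 and 460 counts in ExE (6.70), 310 and 79 in P, and 1 and 3 in A.

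**Figure D2:**
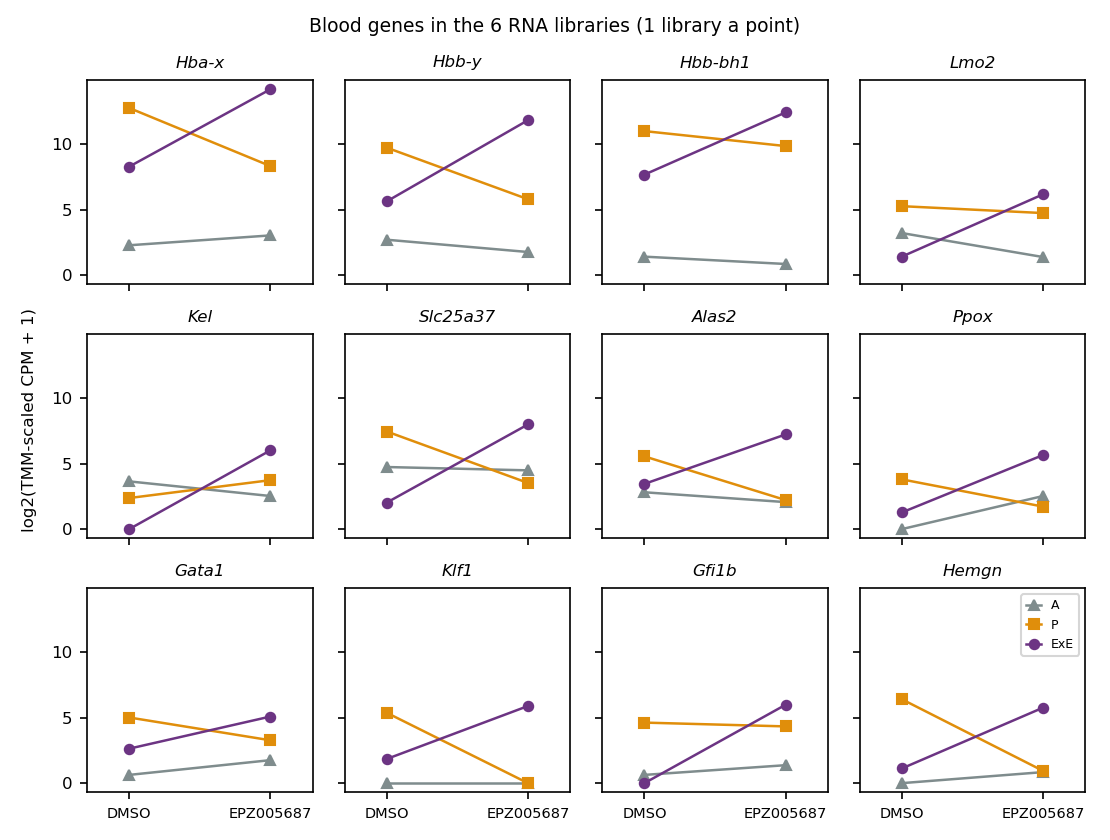
Levels of 12 blood genes as log2(TMM-scaled CPM + 1) with DMSO and with EPZ005687 in anterior (A, grey triangles), posterior (P, orange squares) and extraembryonic (ExE, purple circles) tissue, with 1 library a point. Each gene is higher with EPZ005687 in ExE, and Hba-x, Hbb-y, Slc25a37 and Klf1 cross between ExE and P, with log2 ratios of opposite sign.

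Of the 4 blood lists 3 were drawn up after the values were seen, and some members reached the minimum through the EPZ005687 library alone. Over the 4 lists together, 36 of 55 genes had 100 or more counts in ExE. Of these 26 were at least 4-fold higher and none lower, against 2.32% and 11.7% of all genes. The 26 made up 15.3% of all higher genes. The share of the counts that the 4 lists held went from 0.115% to 4.09% in ExE and from 1.10% to 0.233% in P. In A it was 0.0754% and 0.134%. Of the 31 also counted in P, 13 were at least 4-fold lower there and none higher, against 13% and 4.53% of all genes counted in P. In 11 of them the level was at least 4-fold higher in ExE and at least 4-fold lower in P, out of 23 such genes among the 114 higher genes of ExE that were also counted in P. ExE and P share no library, but the arm's code is common to both.

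Promoter letters are shown for red cell genes that were higher, and for the receptors Igf2r and Notch2 that were lower, because PRC2 is known for CG-rich promoters. They were picked after their CG numbers were seen, to show windows that differ. Each is the 250 bases before a transcript start in RefSeq on GRCm38.p6, read along the gene's strand, with CG dinucleotides in capitals; at Kel the last 9 bases lie inside the annotated gene.
Hba-x (chr11:32276350-32276599, plus strand): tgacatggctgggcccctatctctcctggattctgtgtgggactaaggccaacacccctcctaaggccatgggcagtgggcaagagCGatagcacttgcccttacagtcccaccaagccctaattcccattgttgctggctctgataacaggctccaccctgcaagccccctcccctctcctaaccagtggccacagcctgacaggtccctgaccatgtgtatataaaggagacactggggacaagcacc
Kel (chr6:41704326-41704575, minus strand): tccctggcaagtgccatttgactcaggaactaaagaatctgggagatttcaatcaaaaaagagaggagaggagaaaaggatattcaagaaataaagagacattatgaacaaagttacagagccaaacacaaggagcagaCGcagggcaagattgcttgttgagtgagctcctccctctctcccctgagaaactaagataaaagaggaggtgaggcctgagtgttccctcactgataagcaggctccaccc
Alas2 (chrX:150547167-150547416, plus strand): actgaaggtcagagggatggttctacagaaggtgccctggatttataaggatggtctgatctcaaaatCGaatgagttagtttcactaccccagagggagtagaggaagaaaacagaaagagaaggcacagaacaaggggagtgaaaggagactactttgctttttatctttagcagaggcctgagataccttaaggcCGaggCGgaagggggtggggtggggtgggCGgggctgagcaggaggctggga
Igf2r (chr17:12769707-12769956, minus strand): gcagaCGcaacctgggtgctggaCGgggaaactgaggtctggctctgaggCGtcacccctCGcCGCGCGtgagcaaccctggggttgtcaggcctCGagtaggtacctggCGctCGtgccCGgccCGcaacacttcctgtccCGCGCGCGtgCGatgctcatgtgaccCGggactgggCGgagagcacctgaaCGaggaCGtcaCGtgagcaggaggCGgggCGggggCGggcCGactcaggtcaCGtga
Notch2 (chr3:98013288-98013537, plus strand): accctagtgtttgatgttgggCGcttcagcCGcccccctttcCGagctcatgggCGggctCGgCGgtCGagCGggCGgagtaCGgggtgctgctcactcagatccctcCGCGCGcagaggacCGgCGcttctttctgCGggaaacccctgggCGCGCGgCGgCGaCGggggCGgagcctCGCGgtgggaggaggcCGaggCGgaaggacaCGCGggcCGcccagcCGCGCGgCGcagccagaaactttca
The windows held 1 CG at Hba-x, 1 at Kel and 4 at Alas2, against 27 at Igf2r and 34 at Notch2. CG number did not follow the direction gene by gene, since Arl4a, higher with a log2 ratio of 7.14, held 39 before the first of its 2 listed starts. Over the 5959 counted genes with a window (81.2%) the median was 17 CG, and over the 692 lower genes with one (80.5%) it was also 17. A window was matched for 73.5% of the higher genes, under the 80% required here, so the same check is void for them. The letters AGATAA, which GATA factors are known to bind, were searched on both strands; they do not overlap a CG. They occurred once at Kel and once at Alas2 and not at Hba-x, Igf2r or Notch2. Other letters around GATA, such as TGATAA in the Hba-x and Kel windows shown, were not searched. AGATAA was present in 5.14% of the counted genes' windows and in 10.3% of all 27025 windows of the table. A match is a description of the letters only.

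Some stromal genes were higher too. Of 18 matrix and mesenchyme genes 9 had 100 or more counts. Of these 4 were at least 4-fold higher and none lower, against 2.32% of all genes higher, with a median of 1.66. The 4 reached the minimum through the EPZ005687 library alone and so had to differ. Acta2, smooth muscle actin, had 7 and 370 counts in ExE (6.05, interval 5.43 to 7.81), 640 and 387 in P, and 34 and 18 in A. The fibrillar collagens Col1a1 (1 and 110 counts, 5.75, interval 5.04 to 12.86), Col3a1 (3 and 104, 5.02, interval 4.29 to 8.18) and Col1a2 (6 and 153, 4.95) were near 0 with DMSO. Fn1 (-1.41) and Pdgfra (-1.64), a receptor found on primitive endoderm as well as mesenchyme, were lower but under 4-fold. Endothelial genes had 2 of 16 members above the minimum, Egfl7 at 1.37 and Flt1 at 0.46, both under 4-fold. Below it lay, among others, Pecam1, the junction protein CD31, with 0 and 78 counts, and Tek with 8 and 46. Kdr, the VEGF receptor of blood and vessel precursors, had 1 and 48. Genes below the minimum leaned higher over the whole table too. The extraembryonic mesoderm list split, with 3 members at least 4-fold higher, all of them these collagens, and 3 lower: the adhesion receptor Vcam1 (164 and 0 counts, at least 32.2-fold lower against the floor), Pitx1 (-3.96) and Ahnak (-3.40). Its median of -0.34 turned positive with library totals. Some markers of blood and mesenchyme thus differed between the same pair of libraries. Neither of the 2 counted vessel genes passed 4-fold, but 14 of the 16 lay under the minimum. Vessel genes can therefore not be set apart from blood and mesenchyme genes here. The part of blood and mesenchyme markers in the other differences was not tested.

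Among the other genes with the highest ratios, Arl4a, a small GTPase of the ARF family, had 1 and 291 counts in ExE (7.14, interval 6.46 to 14.26), 22 and 157 in A, and 147 and 119 in P. Cmpk2, a mitochondrial nucleotide kinase that interferon induces, had 0 and 147 counts, and St6galnac1, a sialyltransferase, 0 and 134. Rgr and Fam212a had 0 counts with DMSO and 119 and 112 with EPZ005687. Against the floor these 4 genes were at least 83.2-fold, 75.9-fold, 67.4-fold and 63.4-fold higher in the order given. Rgr overlaps Lrit1, whose reads cannot be told apart from its own where strand is not known.

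The 15 genes with the lowest ratios ranged from scarce to abundant. Actb, cytoplasmic beta-actin and the gene with the most counts in the DMSO library, had 302302 counts with DMSO and 1310 with EPZ005687 in ExE, or 5.20% and 0.0657% of the library, a log2 ratio of -7.08 (-7.17 to -7.01). It had 161453 and 2035 counts in P (-5.92) and 79576 and 1328 in A (-5.37), so the EPZ005687 library was the low one in each tissue. Actg1, the paralog that encodes gamma-actin, had 12265 and 5945 counts in ExE, a log2 ratio of -0.28 (-0.33 to -0.24) that turned positive with library totals. Nck2, an adaptor between receptors and actin, had 826 and 0 counts and was at least 162-fold lower against the floor of 3 counts.

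The others of these 15 had varied functions. Kdelr2, which returns escaped chaperones to the endoplasmic reticulum, had 39626 and 260 counts in ExE (-6.48, interval -6.67 to -6.31), 13552 and 196 in P (-5.71), and 5088 and 112 in A (-4.95). Slc39a1, a zinc importer, had 15831 and 92 counts (-6.64), 6962 and 34 in P, and 2207 and 30 in A. Alkbh5, which removes N6-methyl groups from adenosine in RNA, had 11673 and 53 counts (-6.98), and Pxdc1 9768 and 42 (-7.05). The deacetylase Sirt6 (-6.88), the phosphatase Ppm1h (-6.75), the translation regulators Pdcd4 (-6.26) and Paip1 (-6.19), the RNA-binding protein Arglu1 (-6.38) and the GTPase Rap2b (-6.09) completed the group with counts in both libraries. Thbd (280 and 0 counts) and Tpbg (215 and 0) were at least 54.9-fold and 42.2-fold lower. Ratios for Pxdc1 were -6.22 in P and -2.03 in A, and for Alkbh5 -5.47 and -4.97.

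Igf2r, the maternally expressed receptor that clears IGF2, had 26364 and 209 counts in ExE (-6.20, interval -6.42 to -6.02), 9453 and 210 in P (-5.09), and 1455 and 28 in A (-5.08). It overlaps the antisense RNA Airn, which is at 0.07 in ExE. Notch2, a receptor of the Notch pathway, had 8983 and 91 counts in ExE (-5.84, interval -6.17 to -5.56), 4668 and 93 in P (-5.23), and 2557 and 48 in A (-5.15). For both receptors every EPZ005687 library lay far below its DMSO counterpart.

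**Figure D3:**
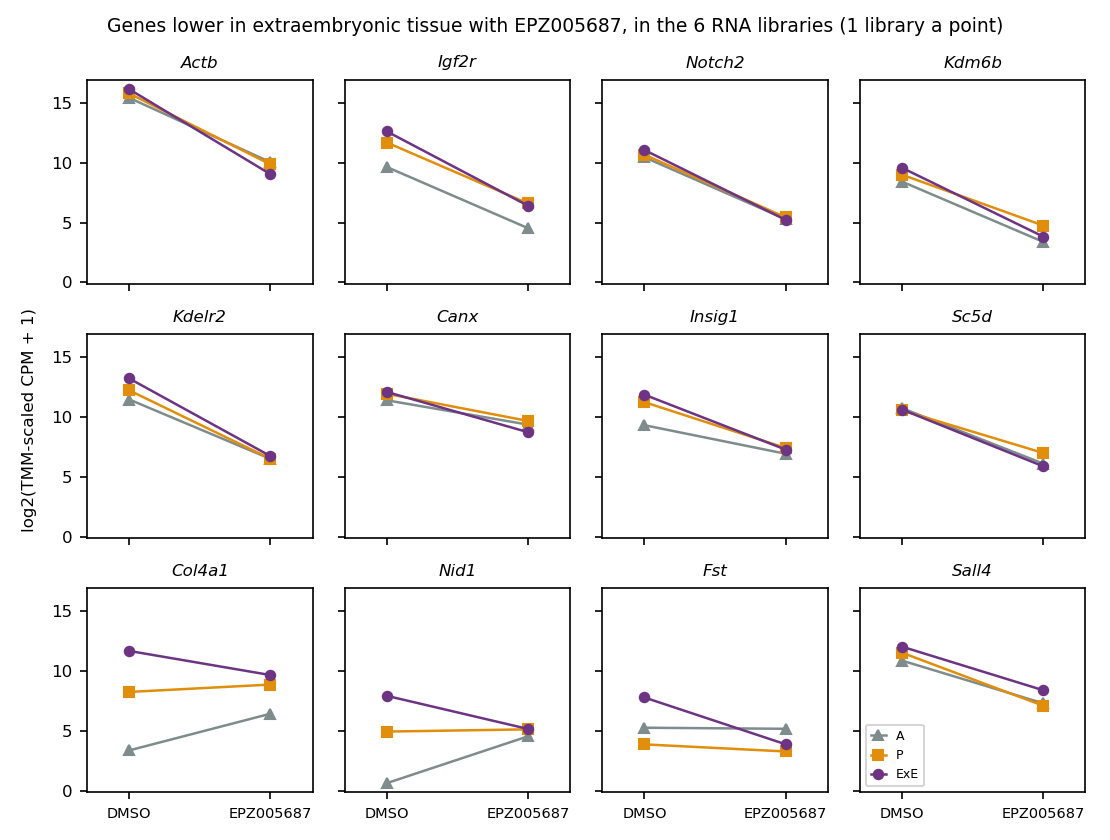
Levels of 12 genes that were lower in extraembryonic tissue with EPZ005687, as log2(TMM-scaled CPM + 1), in A (grey triangles), P (orange squares) and ExE (purple circles), with 1 library a point. Actb, Igf2r, Notch2, Kdm6b, Kdelr2, Canx, Insig1, Sc5d and Sall4 are lower in all 3 tissues, whereas Col4a1 and Nid1 are higher in A and near level in P.

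The lower genes of ExE were often lower in the embryonic tissues too. Of the 704 with 100 or more counts in P, 331 (47.0%) were at least 4-fold lower there as well, against 13.7% of all 6071 genes counted in both tissues, and 9 were at least 4-fold higher. Of the 481 counted in A, 256 (53.2%) were lower there, against 9.17% of the 4167 genes counted in both, and 4 were higher. Those shared genes made up 38.7% of the 856 lower genes of P and 56.6% of the 452 lower genes of A (10.1% of the 4479 genes counted in A). The higher genes of ExE were shared less in number: 12 of the 114 counted in P were higher there (10.5%, against 3.26% of all genes counted in both). Another 23 (20.2%) were at least 4-fold lower in P, against 13.7% of all genes counted in both. In A 7 of 47 were higher and none lower, where 4.6% of all genes counted in A were higher. Of the 4167 genes counted in both ExE and A, 9.17% were at least 4-fold lower in A.

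**Figure D4:**
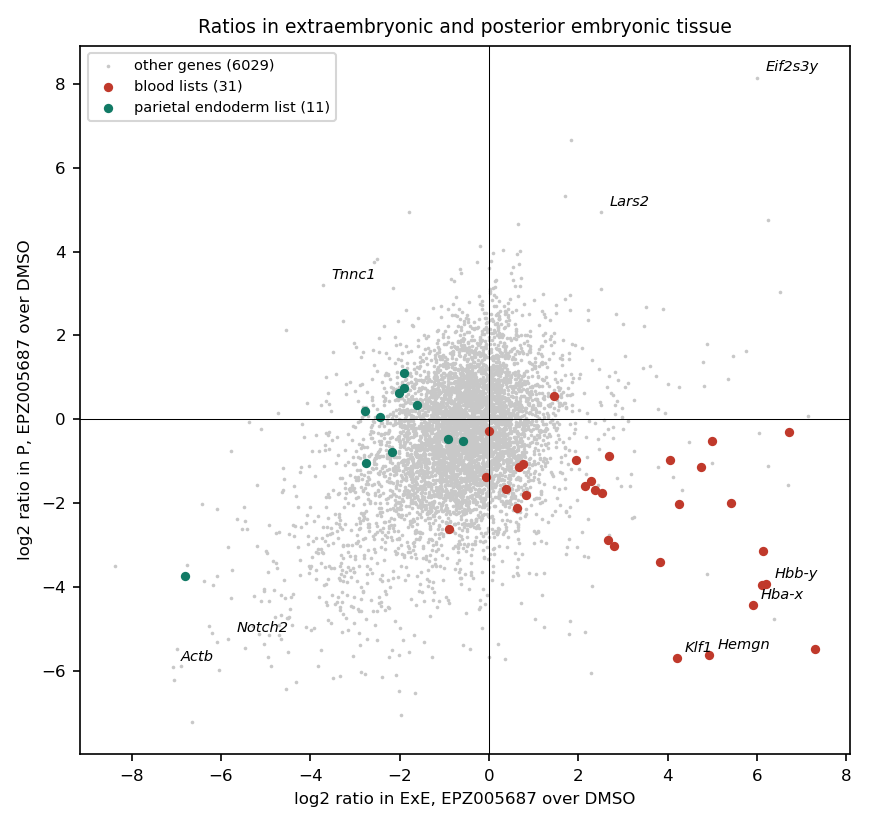
Log2 ratio of EPZ005687 over DMSO in extraembryonic tissue (horizontal) and in posterior embryonic tissue (vertical) for the genes with 100 or more counts in both pairs, 1 gene a point. Genes of the 4 blood lists (red, 31 genes) lie mostly to the right and below 0, Actb and Notch2 lie low on both axes, and the parietal endoderm genes (green, 11 genes) lie to the left and mostly near level in P, except Thbd.

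Endoderm genes were well represented in both libraries, and the medians of their lists lay below that of all genes in unequal measure. Of the 13 parietal endoderm genes 8 were at least 4-fold lower and none higher, against 11.7% of all genes, with a median of -2.17. With library totals 4 were, where 426 of the 7340 genes were lower, and the median was -1.39. Parietal endoderm lays down the thick basement membrane of the yolk sac. Its collagen IV gene Col4a1 had 13701 and 1998 counts in ExE (-2.01, interval -2.08 to -1.95, but -1.23 with library totals and -1.90 with DESeq2 size factors, both under 4-fold), while its levels were 9.29 and 84.8 in A (3.02) and 301 and 462 in P (0.62). The laminin chains Lama1 (-2.44), Lamc1 (-2.75) and Lamb1 (-1.90), the linker Nid1 (-2.78), Sparc (-2.17) and the activin antagonist Fst (-3.94) were lower in ExE, Lamb1 by less than 4-fold. In P the list's median was 0.05.

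Visceral endoderm genes differed less. Of 19 secreted-protein genes 4 were at least 4-fold lower and none higher (median -1.43), and of 21 genes of uptake and regulation 4 were lower and none higher (median -0.94). Over all genes 11.7% were lower. With library totals the numbers of lower genes in these lists were 2 and 0, where 426 of the 7340 genes were lower, and the uptake list's median was -0.17. That list's share of all counts was 0.488% with DMSO and 0.539% with EPZ005687. Afp, the fetal serum protein alpha-fetoprotein, had 91855 and 20268 counts in ExE (-1.42, interval -1.44 to -1.39), 12822 and 8474 in P (-0.21), and 9 and 2897 counts in A (8.53). Ttr, the carrier of thyroxine and retinol, stood at -1.85 in ExE and Apoa1 at -1.43, both under 4-fold. Past 4-fold lower were Fgg (-3.07), Apoa4 (-2.57), Kng1 (-2.23) and Serpina1b, with 102 and 0 counts, whose copies in the serpin cluster share reads. Trf, transferrin, stood at 0.00 (-0.04 to 0.04) and Apoe, the lipid carrier, at 0.81, both above the median of all genes. Among regulators the nuclear receptor Hnf4a was lower at -2.57 and Foxa1 at -2.14, while Gata4 (-0.45) and Gata6 (-0.30) lay near the median of all genes. Levels of endoderm and blood transcripts thus differed between the ExE libraries, and which cells were present was not measured.

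The counted genes of the inhibited complex stayed within 4-fold, as did most genes. All 10 PRC2 genes with 100 or more counts, of 12 in the table, lay between the thresholds. Over all genes 2.32% were at least 4-fold higher and 11.7% lower, so none of 10 is near the general share. The median of the 10 was -1.35, below the -0.51 of all genes. Ezh2, the target, had 1631 and 361 counts in ExE, levels of 386 and 145 (-1.41, interval -1.58 to -1.25), and its ratios were -1.01 in P and -1.31 in A. The inhibitor acts on the enzyme's activity, so the transcript does not check the label. The core partners Suz12 (-0.45) and Eed (-0.17) and the second catalytic subunit Ezh1 (-0.20) were nearer to 0 and turned positive with library totals. The accessory subunits Jarid2 (-1.43), Aebp2 (-1.47) and Mtf2 (-1.38) were close to Ezh2. Of 11 PRC1 genes 2 were at least 4-fold lower, Pcgf2 (-2.55) and Bmi1 (-2.07), and none higher, which is near the 11.7% of all genes. With library totals none was, and Bmi1 stood at -1.31, or -1.96 with DESeq2 size factors.

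Kdm6b, one of the demethylases that remove H3K27me3, was far lower, with 3211 and 33 counts in ExE (-5.78, interval -6.38 to -5.35), 1465 and 57 in P (-4.25), and 624 and 12 in A (-4.99). Its X-linked relative Kdm6a stood at 0.06 in ExE (-0.37 to 0.49), above the median of all genes. The acetyltransferases Crebbp (-0.57) and Ep300 (-0.19), which modify the same lysine, were within 4-fold and turned positive with library totals. Among 13 enzymes of H3K4 and H3K9 methylation 5 were at least 4-fold lower and none higher (median -1.65), against 11.7% of all genes lower. With library totals 3 were lower, where 426 of the 7340 genes were. The 5 were the H3K4 demethylases Kdm1a (-3.34), Kdm5c (-2.95) and Kdm5a (-2.45) and the methyltransferases Setd1b (-2.79) and Kmt2d (-2.70). None of 7 DNA methylation genes passed 4-fold, where Dnmt3a stood at -1.50 and Dnmt1, the maintenance enzyme, at 0.44.

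Developmental gene families that PRC2 is known to silence had few counts in both libraries. Of 39 Hox genes 30 had 0 counts with DMSO, 19 with EPZ005687 and 16 in both, and together they had a level of 59.9 with DMSO and 49.0 with EPZ005687. Genes with 0 counts were fewer with EPZ005687 over the whole table too, where 19058 genes had a count against 15367 with DMSO, although the DMSO library was the deeper one. Hoxb4 alone reached the minimum, with 142 counts with DMSO and 0 with EPZ005687. It was at least 27.9-fold lower, and its reads cannot be told apart from those of the overlapping Hoxb3. Of 32 genes of the Pax, Lhx, Nkx, Irx and sine oculis homeobox families none reached 100 counts, 20 were at 0 with DMSO and 12 with EPZ005687, and together they had a level of 31.5 with DMSO and 63.5 with EPZ005687. Of 12 T-box genes only Tbx20 reached 100 counts, and 6 were at 0 with DMSO and 2 with EPZ005687 (1.34, interval 0.84 to 1.96). In the GATA and Fox families 13 of 30 reached 100 counts, and of these Gata1 was at least 4-fold higher and Foxn2 (-4.76), Foxq1 (19.2-fold), Foxn3 (-2.72) and Foxa1 (-2.14) at least 4-fold lower. Over all genes 2.32% were higher and 11.7% lower. With library totals 2 of the 13 were lower, where 426 of the 7340 genes were. Cdkn2a, the cell cycle inhibitor locus known as a Polycomb target, had 5 and 0 counts, and Cdkn1c stood at -1.94. Among the members of these families with 100 or more counts, Gata1 was the only one at least 4-fold higher, and levels under the floor of 3 counts cannot be seen.

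Imprinted genes known to depend on H3K27me3 in extraembryonic lineages followed. Of 5 with 100 or more counts none passed 4-fold higher and Xist was at least 4-fold lower, with Sfmbt2 at -1.75, Jade1 at -1.69, Smoc1 at -1.17 and Gab1 at -0.47. Slc38a4, below the minimum, had 0 counts with DMSO and 87 with EPZ005687. Xist, the RNA that coats the silent X, had 1498 and 80 counts in ExE (-3.44, interval -3.81 to -3.14), 459 and 15 in P (-4.39), and 335 and 17 in A (-3.64). Tsix overlaps it in antisense. Y-linked genes were near 0 with DMSO. Eif2s3y had 1 and 131 counts in ExE (interval of the log2 ratio 5.29 to 13.11), 0 and 488 in P, and 0 and 57 in A, and Ddx3y had 2 and 201 in ExE (6.25, interval 5.54 to 10.47), 4 and 127 in P, and 4 and 76 in A. With EPZ005687 these Y-linked genes were higher and Xist lower in all 3 tissues, and the sex of the embryos, which is not given, cannot be told apart from the treatment in these libraries. Over the X chromosome 284 genes had a median of -0.70, against -0.50 over 7038 autosomal genes. Among classical imprinted genes, Igf2r and Ppp1r9a (-3.10) were at least 4-fold lower of 14 maternally expressed genes, a share near the 11.7% of all genes. Of 12 paternally expressed genes Impact (-2.79), Ndn (-2.58) and Peg3 (-2.08) were at least 4-fold lower, or 1 of 12 with library totals. Mest, the mesoderm-specific hydrolase, was higher at 3.79 (16 and 149 counts), where Copg2 overlaps it. H19 (0.41) and Igf2 (-1.02) were within 4-fold.

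**Figure D5:**
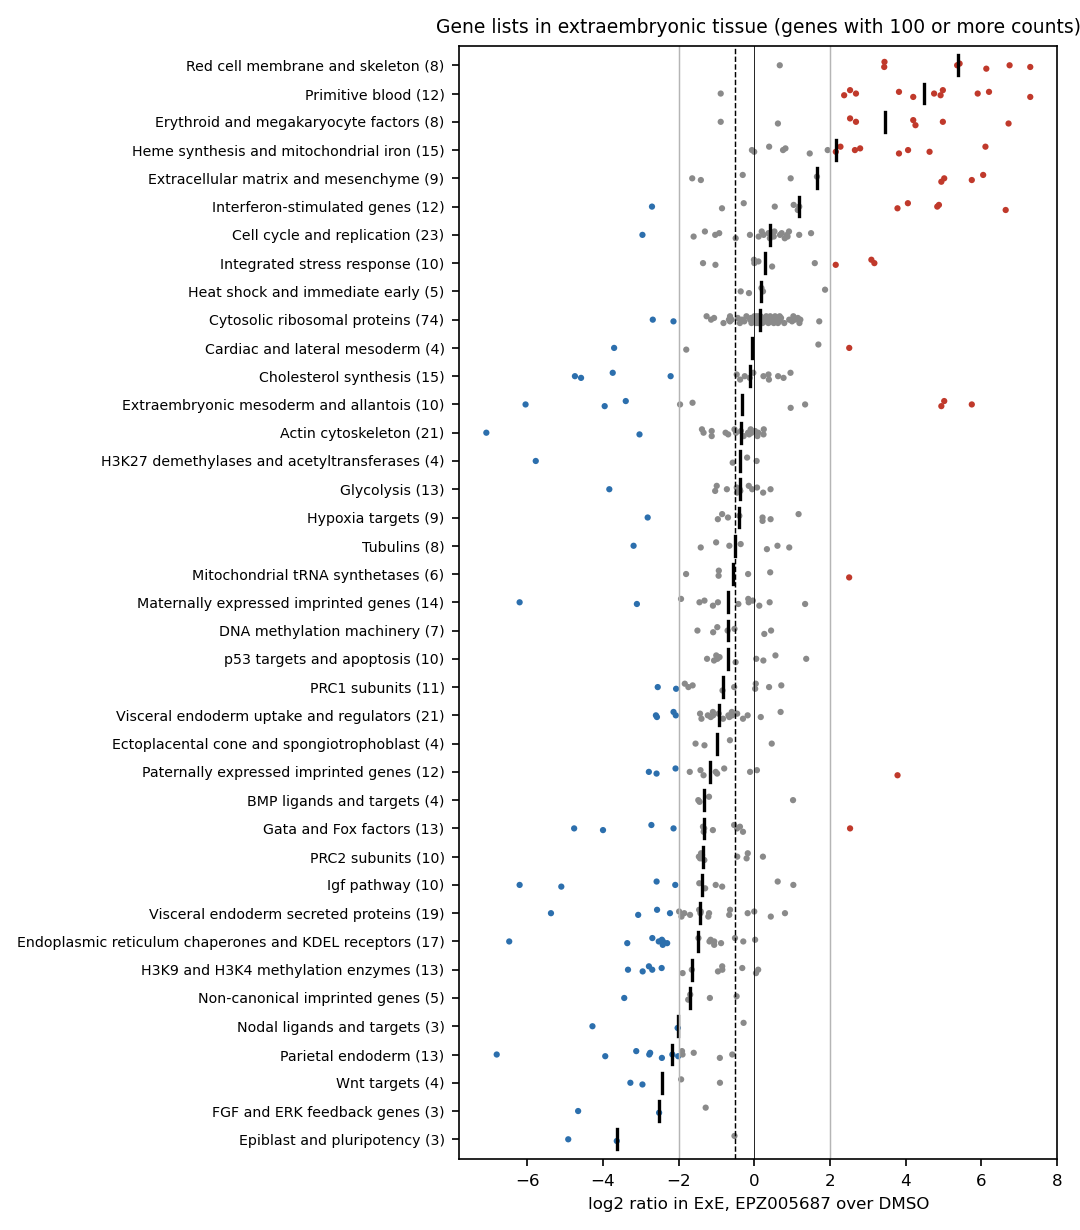
Log2 ratio of EPZ005687 over DMSO in extraembryonic tissue for the genes with 100 or more counts (number in parentheses) of the 39 lists that had at least 3 of them, 1 gene a point, with black bars at the list medians. Red points are at least 4-fold higher and blue points at least 4-fold lower, the grey lines mark 4-fold and the dashed line the median of all 7340 genes at -0.51; the blood lists lie furthest right and the epiblast, FGF and Wnt lists furthest left.

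Among counted signalling genes some were at least 4-fold lower and none higher, against 11.7% of all genes lower. The FGF feedback genes Spry2 (-4.66) and Etv5 (-2.52) were at least 4-fold lower of 3, and the Wnt target Znrf3 (-3.28) and cyclin gene Ccnd1 (-2.96) of 4. In the IGF pathway 4 of 10 were lower, namely Igf2r and the RNA-binding proteins Igf2bp1 (-5.10), Igf2bp3 (-2.58) and Igf2bp2 (-2.09), or 2 of 10 with library totals. In the BMP list none of 4 was, with the target genes Id2 at -1.45 and Id3 at -1.48, the ligand Bmp6 at -1.20 and the decoy receptor Bambi at 1.02. The Notch ligand Jag1 stood at -2.28, and Furin (-4.28) and Skil (-2.03) of the Nodal list were lower. Sall4 (17545 and 830 counts, -3.63) and Lin28a (-4.92), shared by pluripotent and early embryonic cells, were lower in ExE and also in P (-4.42 and -5.15) and A (-3.56 and -3.61).

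In the secretory pathway 8 of 17 chaperone and KDEL receptor genes were at least 4-fold lower and none higher (median -1.48), against 11.7% of all genes lower. With library totals 2 of 17 were lower, where 426 of the 7340 genes were. Beside Kdelr2 these included the lectin chaperone Canx (-3.36), the disulfide isomerase Pdia3 (-2.70) and Hsp90b1 (-2.53), while Hspa5 (BiP) stood at -1.48. Cholesterol synthesis was uneven: 4 of 15 genes were at least 4-fold lower, among them Sc5d (-4.74), Insig1 (-4.58) and Hmgcs1 (-2.21), and the others, such as Cyp51 (0.24) and Fdps (0.77), were within 4-fold. The list's median of -0.12 turned positive with library totals. In glycolysis the hexokinase Hk2 was lower (-3.83) among 13 genes, and Gapdh stood at 0.43. Tubb5, a beta-tubulin, had 65057 and 4191 counts (-3.19) while Tuba1b stood at -0.36. The monocarboxylate carrier Slc16a1 had 7829 and 393 counts in ExE (-3.55, interval -3.70 to -3.41), 2273 and 1994 in P and 94 and 151 in A.

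Of the 39 lists with 3 or more counted genes 17 had a median above that of all genes, among them the blood, matrix and cholesterol lists already given. Of 23 cell cycle and replication genes 18 lay above the median of all genes, none was at least 4-fold higher and Ccnd1 alone was lower, with a median of 0.41 in ExE and -1.34 in P. Of 10 genes of the integrated stress response 3 were at least 4-fold higher and none lower, against 2.32% of all genes higher, with a median of 0.29. They were the asparagine synthetase gene Asns (162 and 873 counts, 3.17, interval 2.95 to 3.45), Shmt2 of mitochondrial serine metabolism (3.10) and Ddit3 (2.15), which overlaps a neighbouring gene. Atf4, their regulator, stood at 0.00 (-0.21 to 0.21). Of the 3 higher genes, Shmt2 and Ddit3 reached the minimum through the EPZ005687 library alone. None of 10 p53 target genes passed 4-fold, with Cdkn1a at -0.49, and none of 5 heat shock and immediate early genes did.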

How the data were processed

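The deposited table holds raw read counts per gene, made by the authors from their RNA libraries. Per the submitters' processing notes, CASAVA 1.8, TopHat2 2.0.9, BWA and the build mm10 were used. For the counting tool, the annotation and the use of strand, nothing is given in the sources used here. Of 23154 entries 27 held dates in place of symbols and were left out, and 23008 of the 23127 genes (99.5%) matched RefSeq on GRCm38.p6, the assembly also called mm10, from which promoters and coordinates came.

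Library sizes were scaled by TMM over the 6 RNA libraries (edgeR 4.0.16, R 4.3.3). Log2 ratios used a prior count of 2 on genes with 100 or more counts, and 95% conditional exact binomial intervals cover counting error alone (SciPy 1.17.1). Scaled CPM without a prior gave the levels and the folds against a floor of 3 counts. The calculation was checked on simulated counts. Alternatives were other scalings (library totals, DESeq2 1.42.0 size factors, TMM over the ExE pair), priors, count minimums and folds, and leaving out Rn45s.

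Named genes were the 15 highest and 15 lowest ratios, without Rn45s and 1 predicted gene, up to 4 members with the largest ratios of each of 46 lists, and a fixed set of chromatin, marker and sex-linked genes. Others, such as further list members given as values, were chosen after their values were seen. The genes and lists were chosen with earlier results of these data known, and 6 lists (heme synthesis, red cell membrane, red cell factors, interferon, Notch and ribosomal proteins) were added after the values were seen. The other 54 samples of the series were not analysed here, and some genes that the rule names are not reported here.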

Additional observations from a re-analysis of the deposited data

Results flagged for a closer look

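Among the genes named by rule and reported here, 10 had 100 or more counts in both pairs compared, a ratio of at least 4-fold in ExE and one of at least 4-fold in the opposite direction in P or A. With 1 library for each tissue and treatment the difference was not tested. Over all genes called in ExE, 23 of the 114 higher and 9 of the 704 lower genes counted in P were opposite there. In A it was none of 47 and 4 of 481. Of all genes counted in both ExE and P, 13.7% were at least 4-fold lower in P and 3.26% higher. Of those counted in both ExE and A, 9.17% were lower in A and 4.63% higher. The rule picks genes with large ratios in ExE, so the number 10 describes the picked genes only. Among blood genes that were higher in ExE, the log2 ratio in P was -3.94 for Hbb-y, -3.95 for Slc25a37, -4.44 for Hba-x, -3.40 for Alas2, -5.70 for Klf1 and -2.03 for the long non-coding RNA Redrum (4.26 in ExE). Ube2l6, an enzyme of ISG15 conjugation, stood at 4.88 in ExE and -3.68 in P. Tnnc1, cardiac troponin C, stood at -3.71 in ExE (119 and 4 counts) and 3.20 in P (52 and 379 counts), and the ribosomal protein gene Rps28 at -2.14 and 3.13. Col4a1 stood at -2.01 in ExE and 3.02 in A.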

How the results depend on the processing

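The number of called genes moved with the settings. Against 170 higher and 860 lower genes, library totals gave 408 and 426, a minimum of 500 counts 28 and 441, no minimum 4344 and 1423, a fold of 2 583 and 2365, and a fold of 8 87 and 333. A minimum of 30 counts gave 1058 higher genes and 1172 lower. DESeq2 size factors gave 187 and 770, TMM over the ExE pair 178 and 814, and leaving out Rn45s 170 and 860. The median of all genes, -0.51, became 0.27 with library totals and 0.46 with no minimum. With library totals 12 of 39 list medians and 13 of 187 named genes changed sign, and 86 of 110 called named genes stayed past 4-fold; with DESeq2 size factors 104 did. The epiblast list's median of -3.63 became 1.14 with no minimum, where more of its genes enter. No paired analysis was possible because each tissue and treatment has 1 library, and for the same reason no library could be left out. Changes under 4-fold, and genes under 100 counts, are weakly resolved at these depths.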

Other observations

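Interferon-stimulated genes, a list drawn up after the values were seen, had 12 of 18 members with 100 or more counts in ExE. Of these 5 were at least 4-fold higher and 1 lower, against 2.32% and 11.7% of all genes, with a median of 1.17. Some of the 12, such as Cmpk2 with 0 counts with DMSO, reached the minimum through the EPZ005687 library alone and so had to differ. Beside Cmpk2 and Ube2l6, the higher genes were Ifi35 (11 and 226 counts, 4.84, interval 4.26 to 6.15) and the membrane proteins that restrict viral entry, Ifitm3 (24 and 259, 4.06) and Ifitm2 (34 and 295, 3.79). Bst2 was lower at -2.70 (324 and 28 counts). Isg15 had 1 and 6 counts, so this classical member was scarce in both libraries.

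Of 74 counted genes for cytosolic ribosomal proteins 64 lay above the median of all genes in ExE, with a median of 0.15. None was at least 4-fold higher and 2 were lower, Rps25 (-2.68) and Rps28 (-2.14). In P 44 of 74 were at least 4-fold higher, with a median of 2.32. Lars2, the mitochondrial leucyl-tRNA synthetase, stood at 2.51 in ExE, 4.95 in P and 5.89 in A, beside Rn45s at 1.83, 6.66 and 3.42.

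Mrgpra6, named for a family of sensory neuron receptors, held 1.12% of the ExE counts with EPZ005687, the share next to Hba-x, with 22341 counts, and was chosen after its value was seen.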
